A study of Mus musculus with 6 samples.

Results

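Lung fibroblasts recovered from injured host lungs on day 4 after transfer (the Day 4 library) were compared with the donor cells before transfer (the Untreated library). Of 24408 listed genes, 3933 are described: their mean over the 2 libraries reached 10 CPM (tags per 1000000 assigned tags). The donor cells came from untreated Col-GFP mice on the C57BL/6 background, which carry a green fluorescent reporter of collagen expression, and were isolated by dissociating the lung and removing cells with lineage markers. They were instilled into the airways of wild-type hosts that had been given bleomycin, a lung-injuring drug, into the airways 7 days before, and Col-GFP+ cells were sorted out of those lungs on day 4. The host, the injury, the days in the lung and the sort on the reporter therefore changed together, and their parts in a difference cannot be told apart. The age of the mice and the number pooled per library are not given in the labels. With 1 library a group, none of the differences was checked against replicates, no p-value is given across genes, and the 95% intervals cover counting error alone. In bulk RNA, fewer cells of a type and less RNA per cell cannot be told apart.

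Resting lung fibroblasts fall broadly into alveolar cells, which lie beside the epithelium and take part in lipid and retinoid handling, and adventitial cells, which sit in the cuffs around vessels and airways. After injury fibroblasts can become activated: they divide, assemble actin and myosin into contractile bundles, and secrete collagen and provisional matrix. Collagen chains are hydroxylated and folded in the endoplasmic reticulum (ER), trimmed outside the cell and then cross-linked. Activins, which belong to the transforming growth factor beta (TGF-beta) family, chemokines and matrix glycoproteins are among the products for which activated fibroblasts are known.

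The Untreated library held 5470701 tags over 12575 detected genes and the Day 4 library 4448065 tags over 12752. In 3' SAGE a short sequence read close to the 3' end, the tag, stands for a transcript. The cDNA was amplified and no molecular identifiers are named, so copies of 1 molecule can count as several tags. The intervals treat tags as independent, so they can be too narrow even for counting error. A value of 10 CPM rests on 44 tags in Day 4 (95% interval 7.19 to 13.3 CPM) and on 55 in Untreated. The median measured gene stood 0.31 log2 higher in Day 4, so differences of log2(CPM + 1), Day 4 minus Untreated, are given relative to that median gene, and folds are CPM ratios divided by the same shift. A gene is said to have risen or fallen when this difference reached 2, which is 4-fold. Smaller differences are given as values. A fold carries no pseudocount, so that of a low gene can pass 4 where the gene does not meet the rule, and a range in parentheses after a fold is its 95% interval.

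By that size rule 303 of the 3933 measured genes rose (7.7%) and 267 fell (6.79%). At 2-fold 770 were higher (19.6%) and 734 lower (18.7%), which left 2429 genes (61.8%) within 2-fold of the median gene. Without centring on the median gene the 4-fold counts were 393 higher and 201 lower, so 66.2% of the calls pointed up in place of 53.2%. Of the genes that rose, 153 lay below 10 CPM in Untreated and were measured through their Day 4 level, and 133 of those that fell lay below 10 CPM in Day 4. The genes that fell took 54.3% of all Untreated tags and 2.44% of the Day 4 tags. The genes that rose went from 3.89% to 39.2%. Gsn, Gpx3, Fos and Sod3 together made up 34.9% of the Untreated tags and 0.724% of the Day 4 tags, and this turnover of a few very abundant messages moves with every CPM value of the Untreated library. With CPM recomputed without the 100 most abundant genes, 262 genes were 4-fold higher and 287 lower, so 47.7% of the calls pointed up. A gene below 10 CPM in one library was measured through the other, where it is high, so it had to differ, and counts and medians over the measured members of a list hold such genes. Their number is given where it is large.

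**Figure D1:**
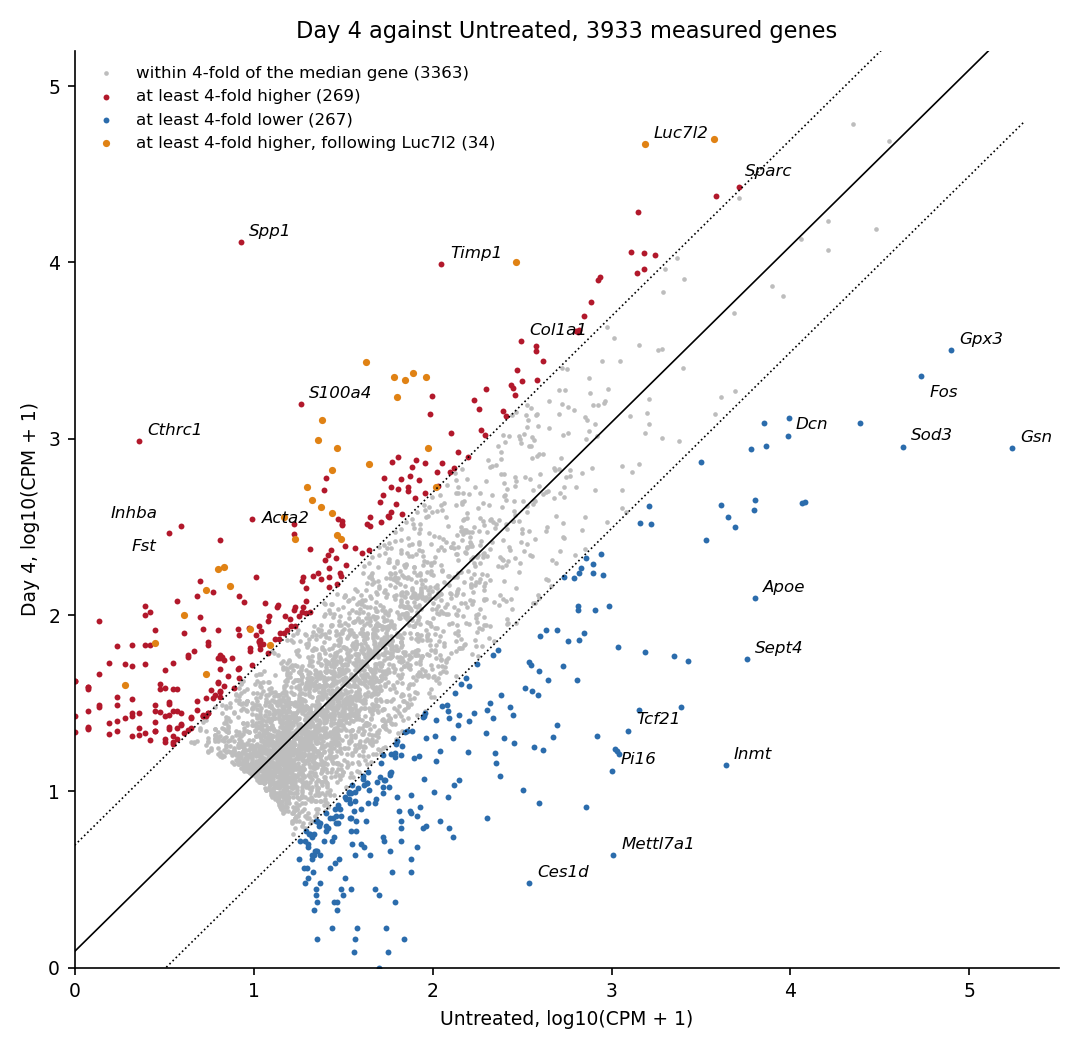
Expression of the 3933 measured genes in Untreated (x axis) and Day 4 (y axis), as log10(CPM + 1). The solid line marks the median gene and the dotted lines 4-fold above and below it; the 303 genes that rose (red and orange) include 34 that follow Luc7l2 over all libraries (orange), and the 267 that fell are blue.

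The largest rise was that of Spp1, which encodes the secreted glycoprotein osteopontin. It was read at 7.49 CPM in Untreated and 12975 in Day 4, which is 1397-fold higher (1029.7 to 1947). Cthrc1, a secreted protein of collagen-producing wound fibroblasts, went from 1.28 to 969.9 CPM, 612-fold higher (297 to 1522). Timp1, an inhibitor of matrix metalloproteases, was 71-fold higher (65.5 to 77) at 9777 CPM in Day 4. Next in size came Fst, S100a4 and Inhba, at 292, 1576 and 318 CPM in Day 4 against 2.38, 17.4 and 2.92 in Untreated. Fst encodes follistatin, which binds activin, Inhba encodes the activin A subunit, and S100a4 a calcium-binding protein often used to mark fibroblasts. Cck, the gene of the gut and brain peptide cholecystokinin, was 61.7-fold higher (31.1 to 144).

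The largest fall was that of Inmt, an indolethylamine methyltransferase abundant in lung, from 4343 to 13 CPM, 413-fold lower (319 to 544). Mettl7a1, a methyltransferase-like protein, fell from 1021 to 3.37 CPM. Gsn, which encodes the actin-severing protein gelsolin, had been the most abundant gene of the Untreated library at 173857 CPM and stood at 884 in Day 4, 244-fold lower (236 to 251). The carboxylesterase Ces1d was 211-fold lower (111 to 462), the septin Sept4 127-fold lower (112 to 145) and the tetranectin gene Clec3b 124-fold lower (87.6 to 181). The transcription factor Tcf21, needed for lung mesenchyme development, dropped from 1230.2 to 21.1 CPM.

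The 6 measured fibrillar collagen chains were all at least 2-fold higher in Day 4, and 4 of them rose; 19.6% and 7.7% of all measured genes did so. Their summed level went from 663 to 5065 CPM. Col1a1, the main chain of type I collagen, was read at 310.2 CPM in Untreated and 3560 in Day 4, 9.26-fold higher (8.81 to 9.74). Its partner Col1a2 moved less, from 52.8 to 249 CPM, 3.81-fold higher (3.34 to 4.35), and Col3a1 stood at 1037 against 265, 3.15-fold higher (2.97 to 3.35). The type V chains Col5a1, Col5a2 and Col5a3, which set the diameter of type I fibrils, rose by 4.93-, 4.89- and 8.14-fold. The other collagens did not share a direction: their median lay -0.06 from the median gene over 11 measured chains. Col15a1 (5.3 to 40.7 CPM), Col7a1 (1.28 to 21.8) and Col8a1 (0.183 to 22, on 1 Untreated tag) rose. Col6a2, a chain of microfibrillar type VI collagen, stayed near the median gene at 442 against 372 CPM, and the transmembrane collagen Col13a1 fell from 87.6 to 5.17 CPM.

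Of 28 measured genes for modifying, exporting and cross-linking collagen, 5 rose, 9 were at least 2-fold higher, 4 at least 2-fold lower and 1 fell. The shares that rose and fell were 17.9% and 3.57%, against 7.7% and 6.79% of all measured genes. Of the 28, 5 lay below 10 CPM in Untreated and were measured through Day 4, among them P4ha3, Bmp1 and Adamts14. P4ha3, a catalytic subunit of prolyl 4-hydroxylase, went from 1.1 to 67 CPM, 49.3-fold higher (22.4 to 135). The propeptide-trimming proteases Bmp1 and Adamts14 rose to 69.2 and 67 CPM from 9.69 and 9.87. The cross-linking enzyme Lox was 4.62-fold higher (3.59 to 6.01), and its relatives Loxl2 and Loxl3, chosen after their values were seen, were 4.14- and 3.61-fold higher. Serpinh1, the collagen chaperone HSP47, was abundant in both libraries and nearly level, at 2519 and 2531 CPM. Pcolce2 and Pcolce, which enhance the trimming by Bmp1, went the other way: Pcolce2 fell from 2688 to 53.7 CPM, and Pcolce stood at 235 against 706, 3.72-fold lower (3.47 to 3.99).

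The list of wound matrix glycoproteins parted into 6 members that rose, 2 that fell and 7 within 4-fold, of 15 measured. The shares that rose and fell were 40% and 13.3%, against 7.7% and 6.79% of all measured genes. Of the 15, 5 lay below 10 CPM in Untreated and were measured through Day 4, among them Spp1, Cthrc1, Tnc and Postn. Besides Spp1 and Cthrc1, Tnc (tenascin C) went from 2.74 to 119 CPM, 34.9-fold higher. Postn (periostin) had no tag in Untreated and stood at 41.1 CPM in Day 4, at least 60.5-fold higher when Untreated is set to a floor of 3 tags. Fn1 (fibronectin) rose from 43 to 234 CPM, and Sparc, a collagen-binding protein already abundant before transfer, from 5143 to 26806. Spon2 and Spon1, secreted proteins with spondin domains, fell from 532 to 50.1 and from 77.5 to 14.4 CPM.

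Genes of elastic fibres and microfibrils also parted, with a median of -0.07. Of 15 measured members 2 rose (13.3%, against 7.7% of all measured genes) and 4 fell (26.7%, against 6.79%). Ltbp2, a microfibril protein that competes for fibrillin binding, and Fbln2 (fibulin 2) rose to 56.9 and 209 CPM from 5.67 and 27.8. Elastin itself (Eln) lay at 251 CPM in Untreated and 475 in Day 4, 1.53-fold higher (1.43 to 1.64). The genes that fell included Fbln5, which guides elastin assembly (65.4 to 5.17 CPM), the latent TGF-beta binding protein Ltbp4 (283 to 17.8) and the microfibril protein Mfap4 (4106 to 422). Efemp1 (fibulin 3) was 63.6-fold lower (45.4 to 92.1).

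Small leucine-rich proteoglycans, which coat collagen fibrils and bind growth factors, had a median of -2.49. Of 7 measured members 4 fell (57.1%, against 6.79% of all measured genes) and 0 rose. Dcn (decorin) stood at 9626 CPM in Untreated and 1039 in Day 4, 11.5-fold lower (11.1 to 11.8). Ogn (osteoglycin) and Prelp fell further, by 52.2- and 30.1-fold, and Podn by 5.99-fold. Bgn (biglycan), at 237 and 213 CPM, and Lum (lumican), at 21.8 and 43.2, stayed within 2-fold.

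Among 13 measured matrix proteases and their inhibitors, 3 rose (23.1%, against 7.7% of all measured genes) and 4 fell (30.8%, against 6.79%). The median was -1.04. Mmp14, a membrane-bound collagenase, rose to 491 from 89.9 CPM, and Mmp10, a stromelysin, had no Untreated tag and 20.7 CPM in Day 4. The stromelysin Mmp3 fell from 614 to 161 CPM. The inhibitors did not move together, since Timp1 rose while Timp3 fell from 786 to 194 CPM. Of cell-surface proteoglycans, Sdc1 (syndecan 1) was 37-fold higher (18.5 to 86.4) and Gpc3 (glypican 3) 12.4-fold lower (10.6 to 14.7).

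**Figure D2:**
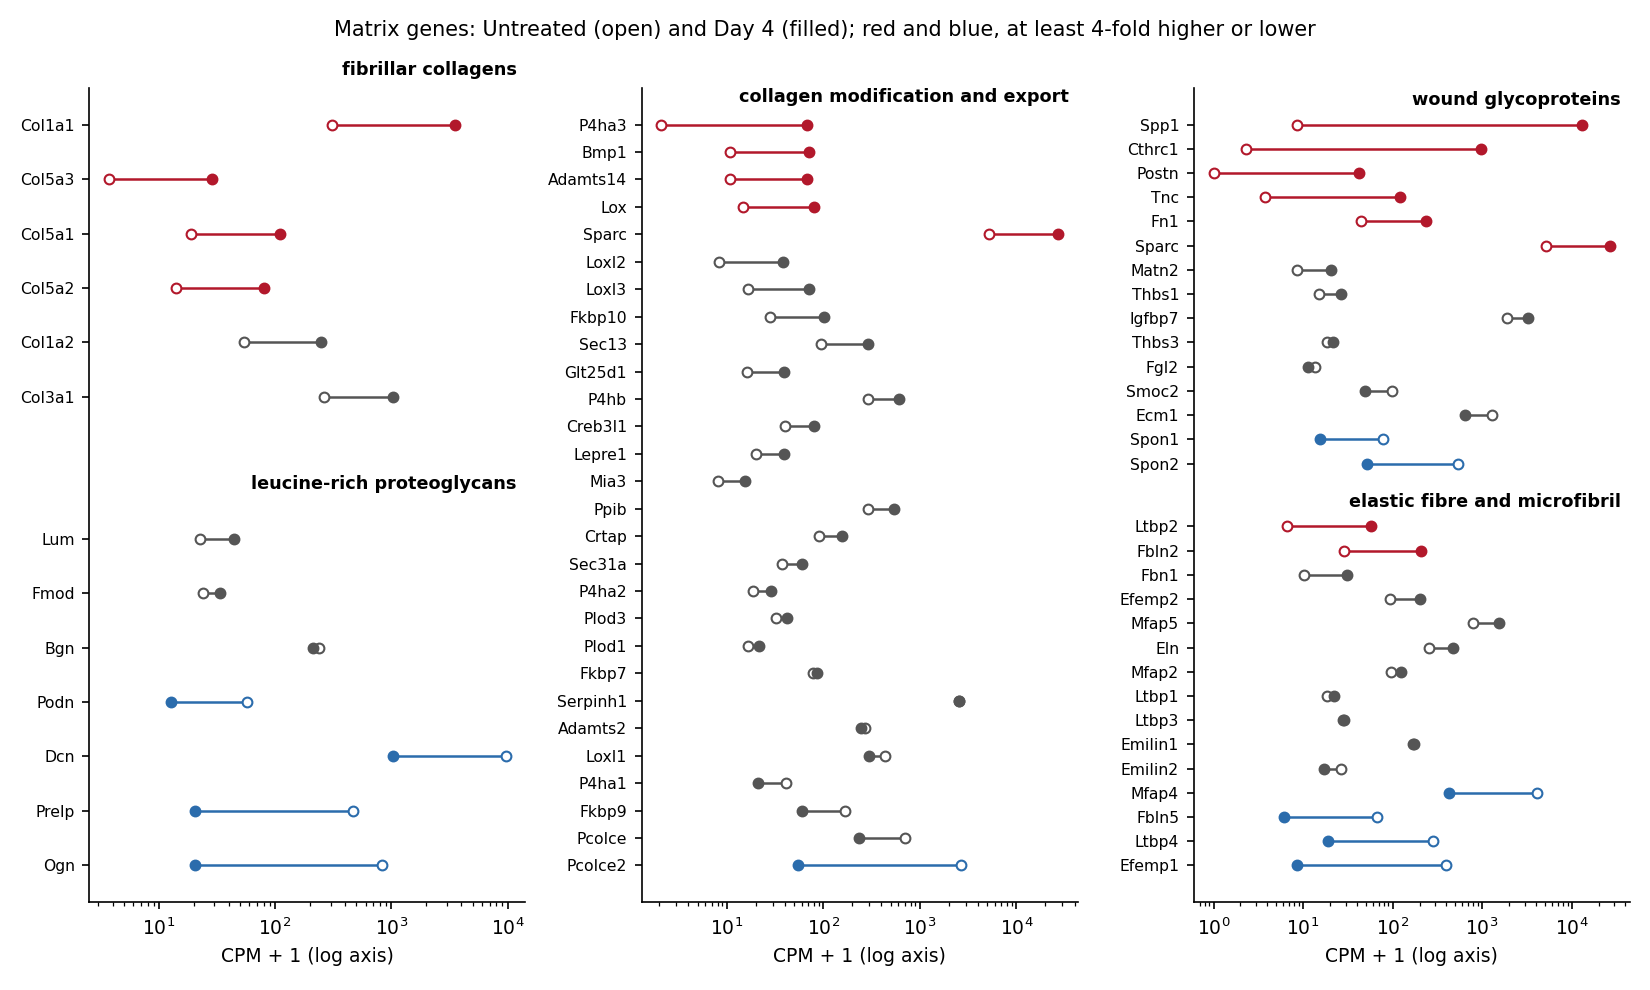
CPM + 1 on log axes for every measured member of 5 matrix lists, with Untreated as open and Day 4 as filled circles; red members rose and blue members fell by at least 4-fold relative to the median gene. All 6 fibrillar collagens lie to the right of their Untreated value, whereas 4 of 7 leucine-rich proteoglycans lie far to the left.

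The contractile list stood 1.61 log2 above the median gene, with 6 of 21 measured members rising (28.6%, against 7.7% of all measured genes). Past 2-fold 12 were higher (57.1%, against 19.6%) and 1 was lower (4.76%, against 18.7%). Acta2, which encodes the smooth muscle actin that defines the myofibroblast, was read at 8.77 CPM in Untreated and 350.5 in Day 4, 32.2-fold higher (24.2 to 43.9). Tpm2 (tropomyosin 2) and Actg2 (enteric smooth muscle actin) had 2 tags each in Untreated and stood at 91.1 and 45.2 CPM in Day 4, with intervals of 55.3 to 1665-fold and 27.3 to 829-fold. Tagln (transgelin), Myh9 (non-muscle myosin heavy chain) and Actn1 (alpha-actinin 1) rose by 5.83-, 4.76- and 4.55-fold. Mylk, the myosin light chain kinase, lay at 153 CPM in Untreated and 89.7 in Day 4, 2.11-fold lower (1.87 to 2.38), and the LIM protein Csrp1 was nearly level at 4837 and 5162. Of the 21 measured members 4 lay below 10 CPM in Untreated, and over members with a mean of at least 50 CPM the median of the list was 0.39.

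Of 37 measured genes of actin turnover 7 rose (18.9%, against 7.7% of all measured genes). At 2-fold 16 were higher (43.2%, against 19.6%), and Gsn was the 1 member that fell. Pfn1 (profilin), which feeds actin monomers to growing filaments, went from 1283 to 11379.6 CPM, 7.16-fold higher (6.98 to 7.34). Cfl1 (cofilin), which severs filaments as gelsolin does, rose to 4937 CPM from 704, and the bundling protein Fscn1 (fascin) to 117 from 7.86. The monomer-binding Tmsb4x (thymosin beta 4) stood at 61272 CPM against 22266, 2.22-fold higher (2.21 to 2.24). Of the filament genes, Vim (vimentin) and Tubb5 (a beta-tubulin) rose, to 11039 and 535 CPM against 1747 and 57.2. In the S100 and annexin list 4 of 13 measured members rose (30.8%, against 7.7% of all measured genes). These were S100a4, S100a11 (30.3 to 329.6 CPM), S100a6 (316 to 2127) and Anxa2 (647 to 4033).

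Genes of integrins and focal adhesions had a median of -0.40 and moved both ways. Of 18 measured members 2 rose (11.1%, against 7.7% of all measured genes) and 3 fell (16.7%, against 6.79%). Itga5, the fibronectin receptor chain, was read at 3.11 CPM in Untreated and 77.8 in Day 4, 20.2-fold higher (12.4 to 35.1). Within the four-and-a-half-LIM family Fhl2 rose from 4.94 to 135 CPM while Fhl1 fell from 1090 to 65.2. The tetraspanins parted as well: Cd63 stood at 10646 CPM against 2314, 3.71-fold higher (3.64 to 3.79), and Cd81 fell from 962 to 111.

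Day 4 cells carried many more tags of genes for DNA replication and mitosis. Of 13 measured mitosis and spindle genes 11 rose (84.6%, against 7.7% of all measured genes) and 0 fell, with a median of 3.96. Of 11 measured replication genes 6 rose (54.5%), with a median of 2.22. In each list 10 members lay below 10 CPM in Untreated and were measured through Day 4, so these counts follow in part from the filter. Without the filter the medians were 2.30 and 1.56, and with a pseudocount of 5 CPM that of the mitosis list was 2.49. Cdk1, the kinase that drives entry into mitosis, went from 4 Untreated tags to 291 in Day 4 (0.731 to 65.4 CPM), 72.2-fold higher (27.9 to 267). Its cyclin Ccnb1 had 1 tag in Untreated and 38 CPM in Day 4. Birc5 (survivin), the ubiquitin carrier Ube2c and the centromere histone Cenpa stood at 52.2, 30.1 and 96 CPM against 1.46, 0.366 and 4.02. For replication, Tk1 (thymidine kinase) went from 0.183 to 37.3 CPM, the dUTPase gene Dut from 9.32 to 164, and the helicase subunits Mcm5 and Mcm6 reached 32.4 and 27.7 from 1.1 and 2.56. Pttg1 (securin), chosen after its value was seen, went against the list at 13.5 against 34.4 CPM. Mki67, the proliferation marker Ki-67, had 0 tags in Untreated and 20 in Day 4 (4.5 CPM) and stayed under the filter.

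The promoters of these genes are shown because mitotic promoters are known for pairs of short elements near the start site. Windows of 300 bases around the start were taken from RefSeq (GRCm38.p6), searched on both strands, for 10 of the 13 measured mitosis genes. The cell cycle homology region TTTGAA was found in 6 of the 10, against 20.2% of 27025 genes with a window, and the CCAAT box (CCAAT) in 8, against 41.1%. The CCAAT box was not particular to them: it stood in 8 of 10 measured replication genes with a window and in 61.7% of such ER list genes. Both elements stood in 6 of the 10 mitosis genes, against 8.97% of all genes. Of those 6, Cdk1, Plk1, Cenpa, Ube2c and Cks1b rose and Bub3 stood at 1.32-fold. Members with a window but without the pair mostly rose as well. Ccnb1, Birc5 and Cks2 lay 4.73, 4.12 and 3.44 log2 above the median gene, and Pttg1 lay at -1.60. Whether the pair goes with the rise was not tested. The windows of Cdk1 (chr10:69352863-69353162, minus strand) and Plk1 (chr7:122159185-122159484, plus strand), a mitotic kinase at 24.1 CPM against 0.731, are printed 5' to 3' along the gene, with both elements in capitals.
Cdk1: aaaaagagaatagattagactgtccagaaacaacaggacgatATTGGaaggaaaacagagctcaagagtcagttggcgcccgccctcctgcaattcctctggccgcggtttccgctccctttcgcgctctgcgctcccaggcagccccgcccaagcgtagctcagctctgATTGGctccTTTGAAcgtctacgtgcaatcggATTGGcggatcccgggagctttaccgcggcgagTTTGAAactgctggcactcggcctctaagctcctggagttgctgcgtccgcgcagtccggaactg
Plk1: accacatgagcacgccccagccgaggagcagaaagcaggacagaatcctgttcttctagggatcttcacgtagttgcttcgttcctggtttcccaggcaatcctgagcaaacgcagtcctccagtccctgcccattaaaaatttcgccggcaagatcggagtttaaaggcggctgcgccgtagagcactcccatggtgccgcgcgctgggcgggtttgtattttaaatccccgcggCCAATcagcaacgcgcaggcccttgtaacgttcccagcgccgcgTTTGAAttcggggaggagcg
A match to letters is a description of the sequence and not of a bound site.

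Brakes on the cycle had a median of -0.23 over 19 measured members, of which 1 rose (5.26%, against 7.7% of all measured genes) and 3 fell (15.8%, against 6.79%). At 2-fold 1 was higher (5.26%, against 19.6%) and 7 were lower (36.8%, against 18.7%). Plk2, a kinase induced by p53, rose from 126 to 1083 CPM, whereas Cdkn1a (p21) stood near the median gene at 395 and 632. Cdkn1c (p57) and Ccng2, which restrain the cycle, and Gas6, a growth-arrest gene, fell by 6.86-, 5.45- and 14-fold. Hmga2 and Hmga1, chromatin proteins of embryonic and growing cells, rose: Hmga2 had no Untreated tag and 25.9 CPM in Day 4, and Hmga1 went from 7.31 to 127 CPM. The core histone Hist1h2ao rose from 1.46 to 99.1 CPM.

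Ribosomal protein genes were higher almost without exception. Of 37 measured genes of the large subunit 35 were at least 2-fold higher (94.6%, against 19.6% of all measured genes). Of these 37 genes 11 rose (29.7%, against 7.7%), and the median was 1.68. Of 29 of the small subunit 26 were at least 2-fold higher (89.7%) and 11 rose (37.9%), with a median of 1.57. None of the 66 lay below the median gene, and the lowest were Fau at 0.27 and Rpl4 at 0.60, both chosen after their values were seen. The summed level of the large subunit list went from 11747 to 57152 CPM and that of the small subunit list from 11378 to 60342. Rpl38 changed most, from 98.3 to 1737 CPM, 14.3-fold higher (13.1 to 15.6), and Rps2 went from 864 to 8274. Ribosomal protein genes have many processed pseudogenes of near-identical sequence, so how tags were split among copies is uncertain. Ribosomal proteins of the mitochondrion did not share the shift: of 49 measured genes 0 rose, 3 were at least 2-fold higher (6.12%), and the median was 0.28. Genes of ribosome assembly in the nucleolus lay at 0.39, with 0 of 26 measured members rising or falling. At 2-fold 4 were higher (15.4%, below the 19.6% of all measured genes), among them Ncl (nucleolin) at 59.4 against 16.5 CPM.

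Translation factors lay in between. Of 43 measured members 1 fell and 4 rose (9.30%), a share near the 7.7% of all measured genes. At 2-fold 19 were higher (44.2%, against 19.6% of all). Eif5a, the hypusinated elongation factor, rose from 381 to 2166 CPM, and Eef1a1, the abundant elongation factor, stood at 6778 against 1945. The paralogous helicases parted: Eif4a2 fell from 60.9 to 14.6 CPM, and Eif4a1, chosen after its value was seen, was 1.97-fold higher (1.81 to 2.14). In amino acid supply the serine synthesis enzymes Phgdh and Psph rose to 85.7 and 18.9 CPM from 9.69 and 2.19, while the glutamine carrier Slc1a5 fell from 399.9 to 74.9. The proteasome list had 15 of 36 measured subunits higher by 2-fold or more (41.7%, against 19.6% of all) and 0 lower by as much, with a median of 0.84. Psmd8, a subunit of the regulatory cap, rose from 55.2 to 366 CPM, and the core subunit Psma7 stood at 2483 against 562.

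In the ER list the median of 56 measured members was 0.18, with 12 members higher (21.4%) and 8 lower (14.3%) by 2-fold or more, of which 3 rose (5.36%) and 4 fell (7.14%). These shares were near those over all measured genes. Those higher included genes for bringing proteins into the ER. The translocation channel subunits Sec61g, chosen after its value was seen, and Sec61b stood at 461 and 1187 CPM against 79 and 389, 4.71- and 2.46-fold higher. Pdia5, a disulphide isomerase, and Edem1, which sends misfolded glycoproteins to degradation, rose by 5.32- and 5.47-fold. The 4 members that fell belong to the unfolded protein response, in which the cell raises chaperones when unfolded proteins build up in the ER. Not all genes of that response fell: Edem1 rose, and Pdia6 lay at -0.14 log2 relative to the median gene. Hspa5, the central chaperone BiP, went from 3149 to 740.3 CPM, 5.27-fold lower (5.08 to 5.47). Herpud1, an ER degradation protein, fell from 808 to 106 CPM, and the co-chaperones Sdf2l1 and Dnajb9 from 102 to 19.6 and from 51.5 to 8.77. Xbp1, a transcription factor of the response, and Creld2, both chosen after their values were seen, were 4.01- and 3.74-fold lower, and Ddit3 (CHOP) stood at 45.9 against 109 CPM.

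Promoter windows of 3 of these genes are shown because the unfolded protein response is known to act through short promoter elements. The ER stress element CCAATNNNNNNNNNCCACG, which contains a CCAAT box, was found in 6 of the 47 measured ER list genes with a window, against 37 of 27025 genes (0.137%). The second ER stress element, ATTGG and CCACG parted by 1 base of any kind, which contains the same box on the other strand, was found in 2 of the 47, against 0.0444% of genes. The 8 holders were Herpud1 (-3.23 log2 relative to the median gene), Hspa5 (-2.40), Creld2 (-1.88), Dnajb11 (-1.34), Dnajc3 (-0.87), Canx (-0.50), Pdia6 (-0.14) and Calr (0.50). Calr and, without centring, Pdia6 lay above 0 and the others below. Members with a window but neither element lay on both sides as well. They ran from Dnajb9 (-2.74) and Sdf2l1 (-2.63), which fell, to Edem1 (2.29) and Pdia5 (2.30), which rose. The windows printed are those of the 3 holders with the lowest values, and whether the element goes with a fall was not tested. Dnajb11, Dnajc3, Canx and Calr are named for the element, which was searched after their values were seen. The RefSeq windows (GRCm38.p6) are those of Hspa5 (chr2:34771840-34772139, plus strand), Creld2 (chr15:88819396-88819695, plus strand) and Herpud1 (chr8:94386179-94386478, plus strand), with the element in capitals, on the opposite strand in Creld2.
Hspa5: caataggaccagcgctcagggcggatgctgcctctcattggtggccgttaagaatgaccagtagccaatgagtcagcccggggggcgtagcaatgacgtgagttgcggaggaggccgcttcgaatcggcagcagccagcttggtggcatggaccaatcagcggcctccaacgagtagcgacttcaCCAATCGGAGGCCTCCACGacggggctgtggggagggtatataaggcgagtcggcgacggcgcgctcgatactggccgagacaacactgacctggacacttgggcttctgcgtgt
Creld2: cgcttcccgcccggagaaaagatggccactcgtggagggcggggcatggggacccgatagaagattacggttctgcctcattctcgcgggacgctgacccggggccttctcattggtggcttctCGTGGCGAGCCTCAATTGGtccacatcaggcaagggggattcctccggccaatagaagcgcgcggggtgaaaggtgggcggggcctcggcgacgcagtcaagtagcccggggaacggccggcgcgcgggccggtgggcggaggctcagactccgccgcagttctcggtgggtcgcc
Herpud1: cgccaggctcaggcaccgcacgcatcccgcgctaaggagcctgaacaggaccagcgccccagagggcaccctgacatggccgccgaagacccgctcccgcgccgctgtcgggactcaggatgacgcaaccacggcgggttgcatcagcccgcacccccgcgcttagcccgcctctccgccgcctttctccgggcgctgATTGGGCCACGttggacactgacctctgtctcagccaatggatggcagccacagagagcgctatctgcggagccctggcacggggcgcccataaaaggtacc

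Of 37 measured cytosolic chaperones 2 rose (5.41%) and 1 fell (2.7%), shares below those over all genes, with a median of -0.11. Of the ring-shaped chaperonin that folds actin and tubulin, the 8 measured subunit genes lay between 0.73 (Cct4) and 1.35 (Cct2) log2 above the median gene, a span chosen after its values were seen. The heat shock genes Dnajb1 and Hspa8 stood at 106 and 1372 CPM against 652 and 3805, and Dnajb1 was 7.64-fold lower (6.94 to 8.43). Hspa1a and Hspb1, inducible heat shock genes, were among the abundant genes of both libraries, at 9060.1 and 16233 CPM in Untreated and 6476 and 17124 in Day 4. The prolyl isomerase Ppia, used as a reference gene in many studies, was 5.1-fold higher (4.98 to 5.23), at 8731 CPM.

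Defence against oxidants showed a further split within 31 measured genes whose median was 0.00. Txn1 (thioredoxin) rose from 169 to 1660 CPM and the metallothionein Mt2 from 631 to 4063. The peroxiredoxins Prdx1, Prdx2, Prdx4 and Prdx5, chosen after their values were seen, were 3.02-, 2.41-, 2.67- and 2.99-fold higher. Of the 5 genes that fell (16.1% of the list, against 6.79% of all measured genes), 3 encode secreted products. Sod3, the extracellular superoxide dismutase, went from 42518 to 901 CPM, Gpx3, the plasma glutathione peroxidase, from 79089.5 to 3179.8, and Sepp1, the selenium carrier of plasma, from 411 to 16.2. Selenbp1 and Txnip, which are not secreted, fell as well, by 26.3- and 6.92-fold.

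**Figure D3:**
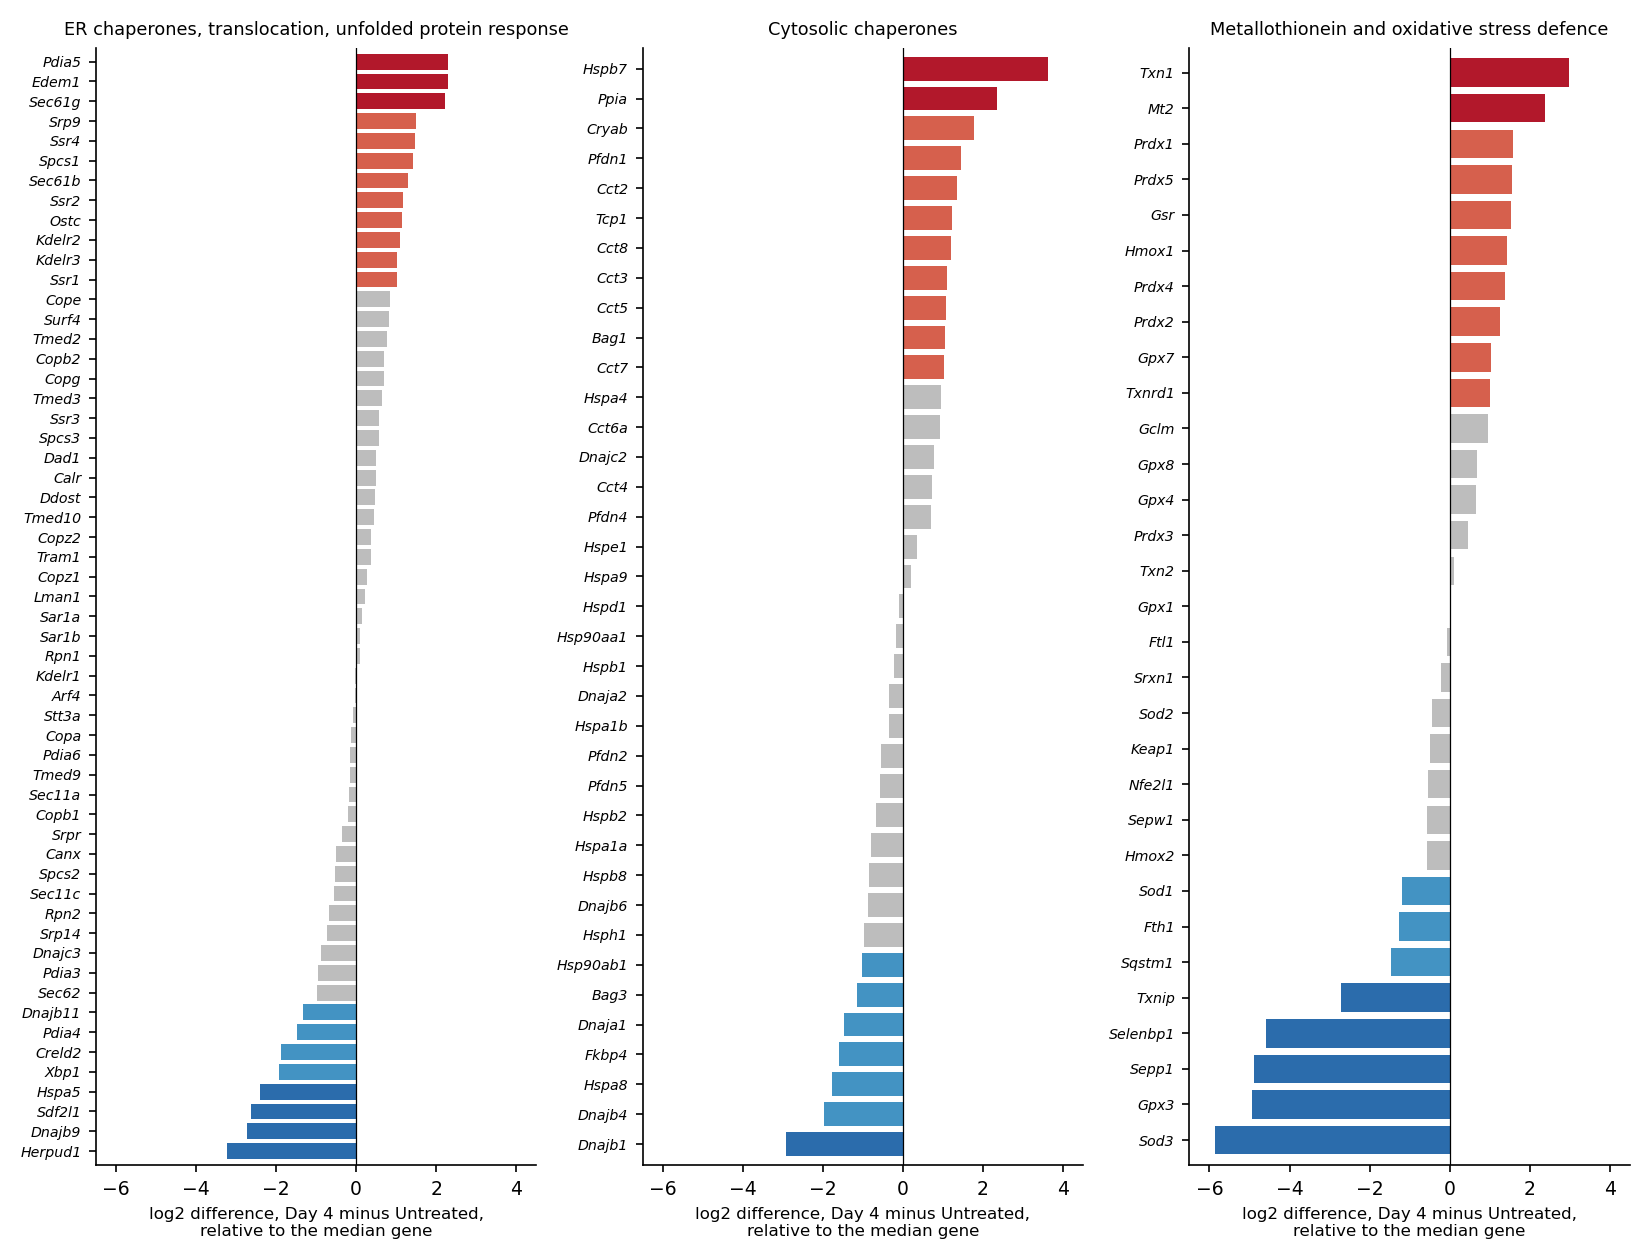
Difference of log2(CPM + 1), Day 4 minus Untreated, relative to the median gene, for every measured member of 3 lists. Dark red and dark blue bars mark at least 4-fold, lighter red and blue at least 2-fold, grey less; in each panel the members run from higher in Day 4 at the top to lower at the bottom, with 12 and 8 of the 56 ER genes past 2-fold on either side.

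Enzymes that process foreign compounds and retinoids included many of the lower genes. Of 30 measured members 16 fell (53.3%, against 6.79% of all measured genes) and 1 rose (3.33%, against 7.7%). At 2-fold 22 were lower (73.3%, against 18.7%), and the median was -2.28. Of the 30, 10 lay below 10 CPM in Day 4 and were measured through Untreated. Without the filter the median was -1.08, and over members with a mean of at least 50 CPM it was -5.23. Inmt, Mettl7a1, Ces1d and the monooxygenase Fmo2 (2447 to 29 CPM) led this group. The glutathione transferase Gstm1 fell from 1418 to 27.9 CPM and Adh1, an alcohol and retinol dehydrogenase, from 1535 to 60.7. Hsd11b1, which regenerates active glucocorticoid, was 47.6-fold lower (42 to 54). The member that rose was Akr1b8, an aldo-keto reductase chosen after its value was seen, at 71 against 9.87 CPM.

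Of 70 measured nuclear genes of oxidative phosphorylation 0 rose or fell, with a median of 0.41. At 2-fold 12 were higher (17.1%, near the 19.6% of all measured genes). The glycolysis and hypoxia list had a median of 0.29. Among its 17 measured genes 5 lay 2-fold or more above the median gene (29.4%), 4 as far below it (23.5%, against 18.7% of all) and 1 fell. Cycs (cytochrome c) stood at 381 against 97.8 CPM, the pyruvate kinase row Pkm2 at 219 against 49, and Ldha at 713 against 226. Bnip3, a mitophagy gene induced by hypoxia, fell from 61.4 to 17.5 CPM, and Ldhb and Adm, chosen after their values were seen, stood at 11.2 against 29.2 and 29.7 against 71.8. In lipid handling, Apoe fell from 6331 to 123 CPM and Apod from 56.8 to 3.6, while the fatty acid carrier Fabp5 rose from 4.75 to 36.6. The sterol-sensing receptor Nr1h3 fell from 52.1 to 4.5 CPM, whereas enzymes of cholesterol synthesis such as Fdps (32.4 to 73.5) and Cyp51 (5.67 to 14.6) stayed within 2-fold of the median gene. Of 42 measured lysosome genes 5 fell (11.9%, against 6.79% of all measured genes) and 14 were at least 2-fold lower (33.3%, against 18.7%). The protease inhibitor Cst3 (cystatin C) led them, at 359.7 against 4459 CPM.

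The lists of signalling genes mostly held members on both sides. In the activin list Inhba and Fst rose together, an activin subunit and an activin antagonist, and the related Fstl1 stood at 530.3 against 171 CPM. The TGF-beta list had a median of -0.07 over 17 measured members. Its ligand Tgfb2 lay at 17 and 57.3 CPM, 2.72-fold higher (2.14 to 3.49), and the feedback genes Smad7 and Pmepa1, known to follow TGF-beta signalling, stood at 32.4 and 157 CPM against 28.1 and 207, Smad7 being chosen after its value was seen. Nox4, an oxidase known as a TGF-beta target in fibroblasts, fell from 34.2 to 6.07 CPM. Of the bone morphogenetic protein (BMP) system, the antagonist Grem1 went from 1 tag to 38.2 CPM while the ligand Bmp4 fell from 73.5 to 6.74. The Wnt antagonist Sfrp1 rose from 43.9 to 361 CPM, and the Wnt list as a whole lay at 0.05.

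In the list of CCN proteins and targets of the YAP-TEAD mechanical pathway, Ankrd1 and Wisp1 (CCN4) rose to 23.4 and 56.7 CPM from 0.548 and 3.29. Ctgf (CCN2) stood at 904 against 345 CPM, 2.12-fold higher (2.0 to 2.24), whereas Cyr61 (CCN1), which is also an immediate early gene, fell from 7107 to 1226 and Wisp2 (CCN5) from 158 to 15.7. Among growth factors, Hbegf, a ligand of the epidermal growth factor receptor, was 35.8-fold higher (19.3 to 75.4) at 81.2 CPM, and Vegfc rose to 21.8 from 2.74. The fibroblast growth factor receptors Fgfr3 and Fgfr4 fell: Fgfr3 went from 49.2 CPM to no tag, at least 90.3-fold lower, and Fgfr4 from 28.1 to 1.12 CPM. Pdgfra, a receptor that marks lung fibroblasts, stood at 12.4 against 30 CPM, 3.0-fold lower (2.2 to 4.16). The insulin-like growth factor binding protein Igfbp6 fell from 3384 to 264 CPM, while Igfbp7 and Igfbp3 remained abundant at 3228 and 509.

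Of 12 measured members of the chemokine list 4 rose (33.3%, against 7.7% of all measured genes) and 3 fell (25%, against 6.79%). The median was 0.03, and 5 of the 12 lay below 10 CPM in one library. Cxcl3 rose from 1.65 to 66.8 CPM, Cxcl2 from 4.2 to 82.1, Ccl2 from 23.6 to 513 and Ccl7 from 58.1 to 739; these chemokines draw neutrophils or monocytes. Cxcl1, which also draws neutrophils, stood at 903 against 354 CPM, 2.06-fold higher (1.95 to 2.18). Cxcl14 and Ccl11 (eotaxin) fell, from 873 to 221 and from 37.3 to 9.44 CPM, as did the scavenger receptor Cxcr7, chosen after its value was seen. In the interleukin 6 family the receptors Il6ra and Il11ra1 fell by 13.1- and 8.56-fold and the feedback inhibitor Socs3 from 661 to 71 CPM. Il6 itself, chosen after its value was seen, stood at 53.2 and 60.7 CPM. Of 23 measured feedback and acute-phase genes of the NF-kB pathway 4 fell (17.4%, against 6.79% of all measured genes) and 0 rose. Those that fell included Nfkbiz, an inhibitor-like regulator (52.8 to 10.6 CPM), and the ferroxidase Cp (51.5 to 15.1).

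Of 24 measured genes of the interferon response and antigen presentation 7 fell (29.2%, against 6.79% of all measured genes). At 2-fold 16 were lower (66.7%, against 18.7%) and 0 higher. The median was -1.26, and 8 lay below 10 CPM in Day 4. The major histocompatibility heavy chains H2-K1 and H2-D1 fell from 27.6 to 2.92 and from 648 to 111 CPM, though paralogs of this family share sequence, and B2m, their light chain, stood at 273 against 542. Of 13 measured complement genes 9 fell (69.2%, against 6.79% of all) and 11 were at least 2-fold lower (84.6%, against 18.7%), with a median of -2.98. Of the 13, 6 lay below 10 CPM in Day 4 and were measured through Untreated, and without the filter the median was -1.25. Serping1, the C1 inhibitor, went from 11633 to 429.6 CPM, 33.6-fold lower (32.1 to 35.1). C1s and C3 fell by 23.2- and 8.18-fold, and C1qtnf6, chosen after its value was seen and a collagen-like protein outside the cascade, was 4.29-fold higher (2.89 to 6.56).

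Immediate early genes, which cells switch on within minutes of a stimulus that can include tissue dissociation, were at very high levels in Untreated. Of 35 measured members 11 fell (31.4%, against 6.79% of all measured genes) and 1 rose (2.86%, against 7.7%). At 2-fold 18 were lower (51.4%, against 18.7%). The summed level of the list was 122663 CPM in Untreated and 13121 in Day 4. Fos stood at 53786 and 2277 CPM, Zfp36 (tristetraprolin) at 24493 and 1232, and Egr1 at 4909 and 313. Jun and Junb, partners of Fos in the AP-1 factor, fell by 9.98- and 9.26-fold. Klf5, a Kruppel-like factor chosen after its value was seen, was the member that rose, from 2.38 to 22.3 CPM, and Myc stayed within 2-fold of the median gene at 45.3 and 77.3. The Untreated cells came from untreated mice and the Day 4 cells from the lungs of bleomycin-treated hosts, and the part of cell handling in these values was not tested. Glucocorticoid response genes were lower too, with a median of -1.36 over 19 measured members, 5 of them below 10 CPM in Day 4. In that list 7 fell (36.8%, against 6.79% of all measured genes), among them Tsc22d3 (GILZ) from 569.6 to 70.6 CPM and Zbtb16 from 21.6 to 3.6. Mt2 was the member of that list that rose.

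Genes typical of resting lung fibroblasts were among the lists with the lowest medians. Of 27 measured alveolar fibroblast genes 22 fell (81.5%, against 6.79% of all measured genes) and 0 rose. At 2-fold 23 were lower (85.2%, against 18.7%). The median was -3.95, and the summed level went from 27394 to 1211 CPM. Of the 27, 8 lay below 10 CPM in Day 4, and without the filter the median was -3.31. Besides Inmt, Mettl7a1, Ces1d, Sept4, Fmo2 and Tcf21, these included Npnt (nephronectin, 1095 to 15.3 CPM), G0s2, an inhibitor of lipolysis (1077 to 16), and the amino acid transporter Slc7a10 (303 tags to 1). The lipid droplet protein Plin2, chosen after its value was seen, was within 2-fold, at 53 and 42.9 CPM. Of 25 measured adventitial genes 17 fell (68%), 20 were at least 2-fold lower (80%) and 1 rose (4%), with a median of -2.98. Of these 25 genes 9 lay below 10 CPM in Day 4, and without the filter the median was -1.96. Pi16 went from 1002 to 12.1 CPM, Clec3b from 719 to 7.19 and Gsn as given above, while Col15a1 rose.

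Of 26 measured mesenchymal and positional transcription factors 2 fell (7.69%, near the 6.79% of all measured genes) and 3 rose (11.5%, against 7.7%). At 2-fold 14 were lower (53.8%, against 18.7%), and the median was -1.09. Tcf21 and Meox2 (41.5 to 5.85 CPM) fell, and the lung mesenchyme factor Tbx4, chosen after its value was seen, was 3.3-fold lower (2.75 to 3.97). Sox9, a cartilage and progenitor factor, rose from 5.48 to 58.5 CPM, Prrx2 from 9.87 to 63.2 and Runx1 from 3.47 to 25. The related repressors Snai1 and Snai2, chosen after their values were seen, parted, at 69.2 against 23.6 and 6.97 against 21.8 CPM.

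**Figure D4:**
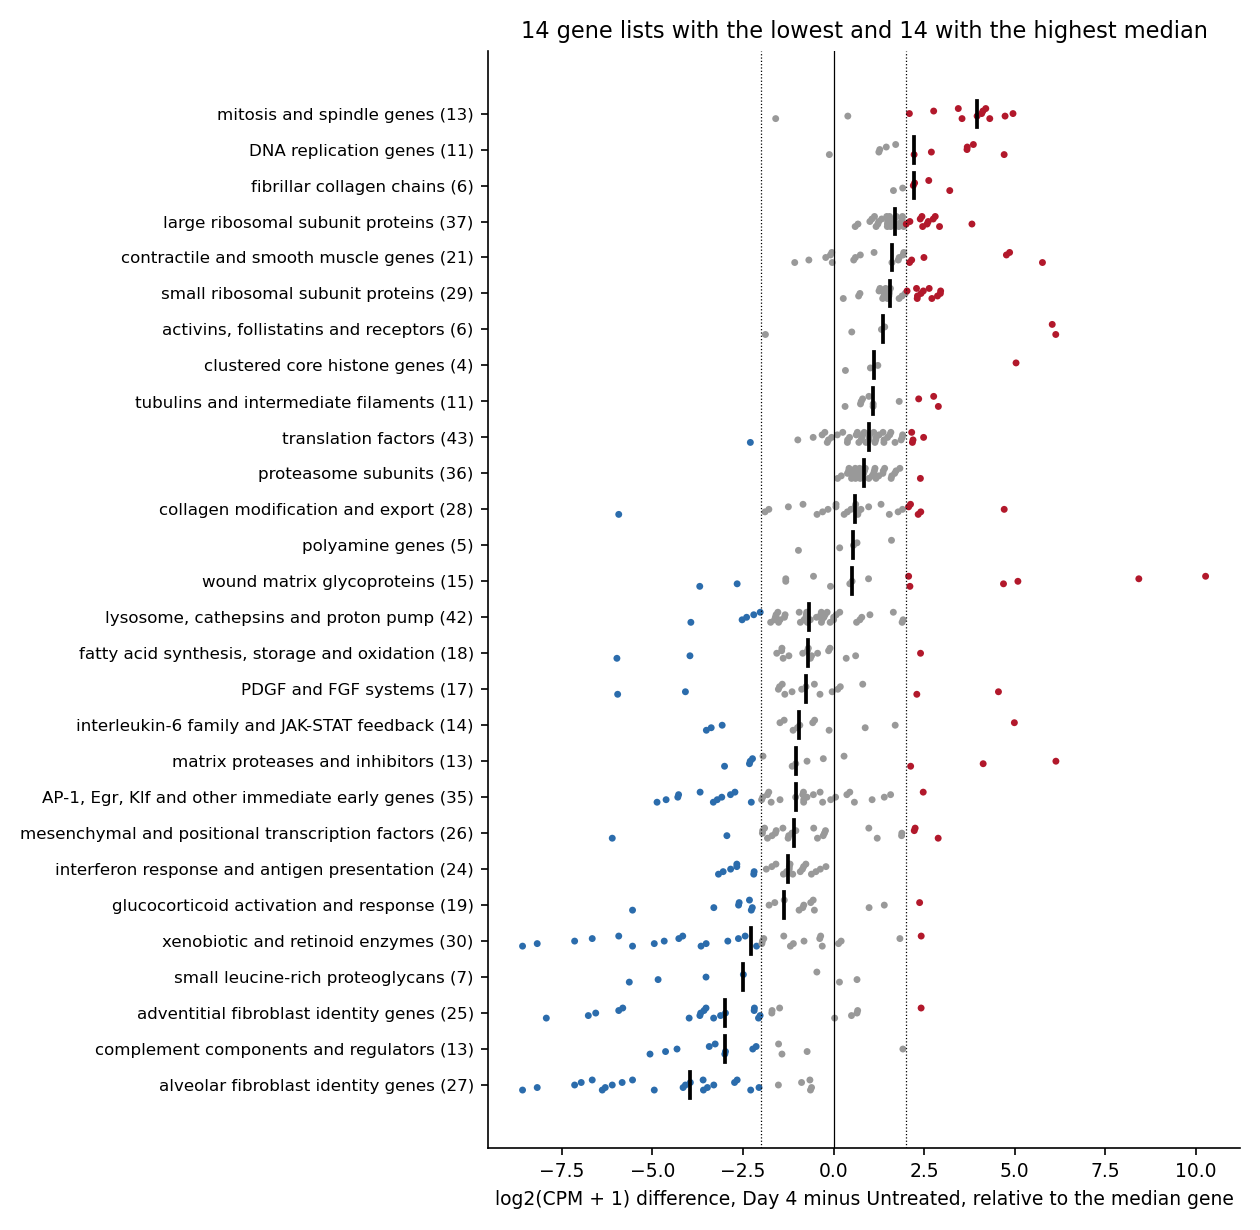
Differences of log2(CPM + 1), Day 4 minus Untreated, relative to the median gene, for the measured members of the 14 lists with the lowest and the 14 with the highest median; the number of members is in brackets, black bars mark medians and dotted lines 4-fold. Alveolar fibroblast genes (median -3.95) lie at the bottom and mitosis genes (median 3.96) at the top, and several lists hold members past 4-fold on both sides.

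Of the fibroblast markers, Col1a1, Vim, Sparc and Fn1 rose, Dcn fell, and Thy1, at 1.1 and 13.5 CPM, stayed under the filter. Markers of other cell types differed in level from list to list. None of the 25 macrophage and monocyte markers in the table was measured, and their summed level was 14.1 CPM in Untreated and 18.2 in Day 4, with 12 and 14 of them at 0 tags. The 16 lymphocyte markers summed to 1.65 CPM in Untreated, and all were at 0 tags in Day 4. The 19 endothelial markers summed to 23.2 and 20.9 CPM, with 11 at 0 tags in each library. The surfactant gene Sftpc of alveolar epithelium stood at 20.7 and 3.37 CPM and the club cell gene Scgb1a1 at 10.4 and 0.674. The 19 alveolar epithelial markers summed to 72.2 CPM in Untreated and 124.3 in Day 4, and most of the Day 4 sum came from Pdpn, given below. The 12 airway epithelial markers summed to 98.0 and 59.1, most of it from Tppp3 (85.7 and 57.8). The 10 neutrophil markers summed to 1080 CPM in Untreated and 16.4 in Day 4, nearly all of it G0s2, which is also on the alveolar fibroblast list, with 6 and 7 of them at 0 tags. The 9 Schwann cell markers summed to 120.8 and 10.3 CPM, most of it Pmp22, which fibroblasts also express, and the 12 pericyte markers to 44.6 and 33.3. None of the 10 erythroid and platelet markers was measured. The 11 smooth muscle markers, several of which are on the contractile list, summed to 209.8 and 734.3 CPM. The 13 mesothelial markers summed to 260.1 CPM in Untreated and 100.5 in Day 4; C3, which fibroblasts also express, made up most of the Untreated sum. Pdpn, expressed by alveolar epithelium and by activated fibroblasts, stood at 23.6 and 97.8 CPM, 3.35-fold higher (2.74 to 4.11).

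A block of 34 genes, found after the values were seen, carried 13.1% of the Day 4 tags and 0.656% of the Untreated tags. These genes were picked because they rose and because they followed Luc7l2, a splicing factor gene, across all 6 libraries. Their rise, and so the gap between those shares, is part of the rule. To follow means a Pearson's r of at least 0.99 over log2(CPM + 1), a description over libraries that share this block. Luc7l2 went from 1547 to 47061 CPM, Zyg11b from 3755 to 50186 and Ogdh, the one gene of the tricarboxylic acid cycle list past 4-fold, from 289.7 to 10030.2. Its share was 9.53% in Day 2 and 1.44% in Day 7. It was 13% in the Acta2 low library and 8.99% in the Acta2 high library, which are transferred cells from Col-GFP and Acta2-mKO1 mice purified by low or high Acta2 expression. Of the 15 largest rises, 4 belong to it, namely 5930430L01Rik, Mcm8, Naip2 and Kdm5a. Where transcripts could be searched, 15 of 30 block members (50%) had a candidate tag found in at least 100 other genes, against 391 of 3540 measured genes searched (11%), so the gene of origin of such tags is uncertain. The cell cycle gene Cks1b, at 0.914 and 39.3 CPM, belongs to the block by its profile, and its candidate tags were found in 5 other genes. With the block left out and the median taken again, 271 genes rose and 266 fell, and no list median crossed 1 log2. Other genes named above with such a shared tag are Sparc, Fn1, Mmp14, Loxl2, Cfl1, Cenpa, Bub3, Pi16, Prdx1, Cct4 and H2-D1.

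The Day 4 values were neither always the highest nor the last of a steady course. Day 2, Day 4 and Day 7 share the Untreated library as their baseline, so their differences from it are not independent. Among Untreated, Day 2, Day 4 and Day 7, 153 of the 303 genes that rose were highest in Day 4, 117 in Day 2 and 33 in Day 7. Of the 267 that fell, 157 were lowest in Day 4, 76 in Day 2 and 34 in Day 7. These genes were picked by their Day 4 difference from Untreated. That choice favours Day 4 as the extreme and keeps Untreated from being it, so these counts do not rank the days. The matrix genes Spp1, Cthrc1 and Col1a1 stood at 357, 129 and 776 CPM in Day 2, and at 72789.7, 2411 and 7988 in Day 7, above their Day 4 values. Acta2 was read at 137 CPM in Day 2, 350.5 in Day 4 and 132 in Day 7, and Tpm2 at 20.7, 91.1 and 20.5, so both were highest in Day 4. S100a4 was also highest in Day 4, at 177, 1576 and 717 CPM.

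Inhba and the chemokines Cxcl3 and Ccl2 were higher in Day 2, at 846, 173 and 877 CPM, than in Day 4, and lower again in Day 7, at 204, 17.4 and 91.2. Cdk1 stood at 51.8 CPM in Day 2 and 14.2 in Day 7. Several genes stood higher in Day 7 than in Day 4: Apoe at 1085 CPM, Mfap4 at 8462, Dcn at 7723, Fos at 15482 and Lum at 747. Inmt, Gsn and Fmo2 remained low in Day 7, at 11.6, 1175 and 26 CPM. In the Acta2 low and Acta2 high libraries, for which the labels do not single out a day, Acta2 was read at 277 and 451 CPM, Cthrc1 at 1325 and 2092, Spp1 at 51706 and 19669.7, and Inmt at 8.84 and 7.99.

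**Figure D5:**
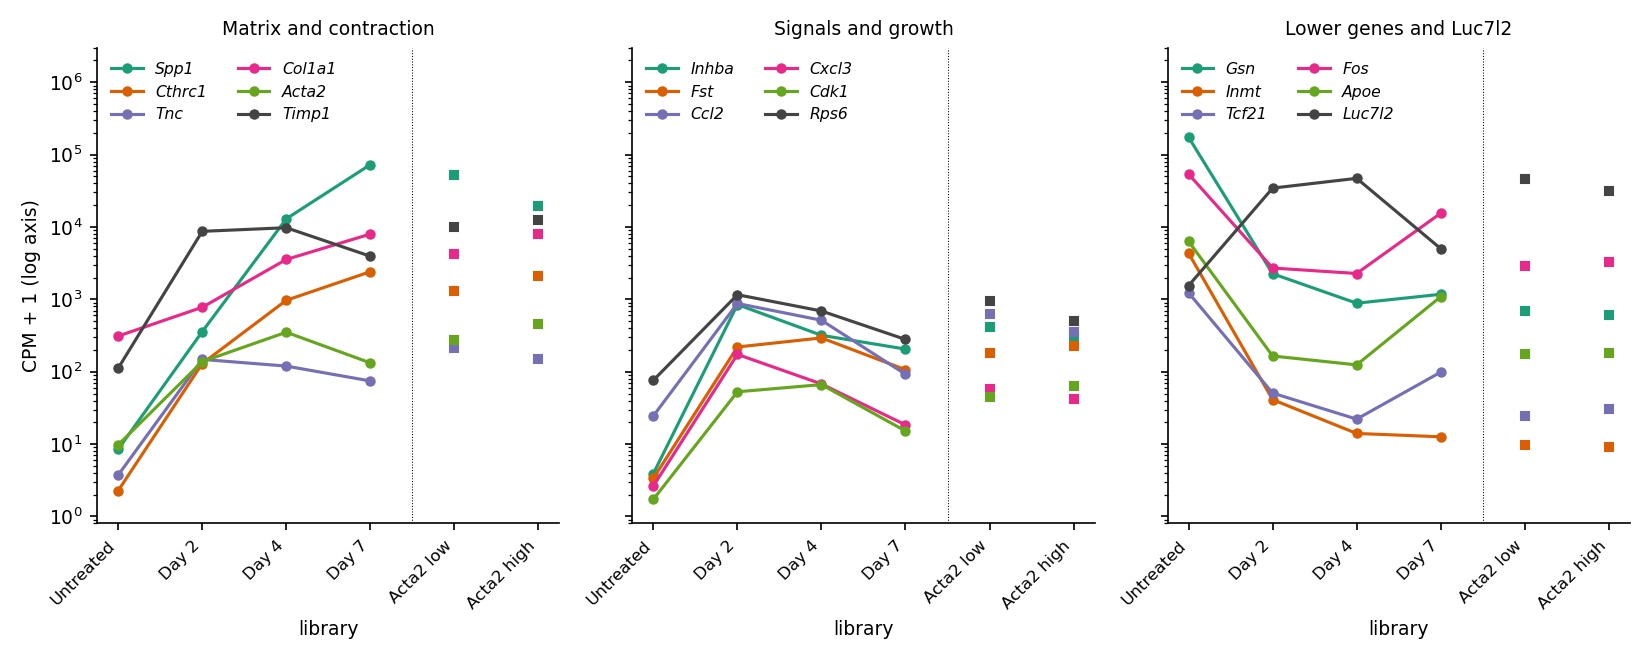
CPM + 1 on a log axis for 18 genes in the 6 libraries, 1 library each; circles joined by lines are Untreated, Day 2, Day 4 and Day 7, and squares are the Acta2 low and Acta2 high libraries. Spp1 climbs through Day 7, Acta2 is highest at Day 4 among the 4 joined libraries, and Inmt stays low after transfer.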

How the data were processed

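Expression was measured by 3' SAGE from cDNA amplified by thermal cycling, per the labels' protocols, which name no molecular identifiers. BWA 0.6.2 and the mouse build mm9 are named in the submitters' processing notes; which enzyme set the tag, how tags were matched to genes or whether strand was used is not given in the sources used here. Values as the authors deposited them are CPM for 24408 gene symbols in 6 libraries, per the file headers, and 2 were compared here. All values were whole multiples of the smallest value per library (100% within 0.001), which gave tag counts and library totals (4448065 to 6175334). In 25 rows a symbol that had become a date was restored from the transcript title.

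The difference of log2(CPM + 1), Day 4 minus Untreated, was centred on its median over genes with a mean of at least 10 CPM. The pseudocount understates the change of low genes. Size rules of 2 and 1 on this scale took the place of a test. Single-gene folds have 95% intervals from the tags (Clopper-Pearson, exact, given their sum), and genes at 0 tags a bound from a floor of 3 tags. As a further setting the size rule was joined to an exact binomial test (two-sided, Benjamini-Hochberg adjustment) of tag counts, which compares 2 libraries and not the conditions. The size rule was tested on simulated data with known changes and counting error alone. That simulation holds no spread between animals and no copies from amplification, so it does not bear on those limits. Members, lists and rules were chosen with earlier results of these data known. The named genes are the 15 largest differences each way above a mean of 50 CPM, 13 anchor genes, the 15 most abundant genes of each library, marker genes, and in each list up to 6 members with the largest differences and 4 with the highest levels; some of these genes are not reported here, others are said to be chosen after their values were seen, and Day 2, Day 7 and Acta2 values are descriptions. Shared tags were searched as the 14 bases from each CATG in GENCODE transcripts, an assumed site, for 19888 rows (81.5%). Promoter windows are RefSeq's, on GRCm38.p6; no coordinates on mm9 are used. Work was done in Python 3.11.15 with numpy 2.4.6, pandas 2.3.3, scipy 1.17.1 and statsmodels 0.14.6.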

Additional observations from a re-analysis of the deposited data

How the results depend on the processing

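No paired analysis was possible because each group has 1 library, and for the same reason no library could be left out. No gene that rose or fell changed sign, and no list median past 1 log2 reversed, under the alternatives run: pseudocounts of 5 and 0.1 CPM, no filter, a filter at 50 CPM, no centring, median-ratio scaling, CPM without the 100 most abundant genes, leaving out genes with widely shared tags, the size rule with the binomial test (counts of genes alone), and, added after seeing the data, leaving out the genes that follow Luc7l2. For single genes that outcome was close to fixed in advance. The filters left a gene's own difference in place, and the scalings moved all genes by nearly the same amount. A gene past 4-fold could therefore hardly change sign, and this says nothing about replicates. The binomial test removed none of the 303, 267, 770 and 734 genes called by size. The median of all genes stood at 0.31 log2 before centring, at 0.14 under median-ratio scaling and at -0.11 without the 100 most abundant genes. Under these scalings 59.2% and 47.7% of the 4-fold calls were higher. Without a filter 569 genes were 4-fold higher and 382 lower, and at 2-fold 1893 were higher and 1582 lower; the filter at 50 CPM left 135 and 146 at 4-fold and 312 and 322 at 2-fold, since fewer genes are measured.

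For lists, the filter at 50 CPM left fewer members and moved these medians past 1: wound glycoproteins 1.79, hyaluronan and large proteoglycans -1.77, plasminogen system -1.82, S100 proteins and annexins 1.51, tricarboxylic acid cycle 1.53, fatty acid genes -1.70, lysosome -1.03, Wnt -1.32, CCN and YAP-TEAD -2.41, interleukin 6 family -1.24 and chemokines 1.91; it moved contractile genes to 0.39 and tubulins to 0.67. Without a filter the medians were -0.19 for matrix proteases, 0.68 for histones, 1.09 for translation factors, 0.36 for activins, -0.69 for interferon, -0.60 for immediate early, -0.63 for glucocorticoid and -0.32 for transcription factor genes. Without centring they were -0.73 for matrix proteases, 1.28 for translation factors, 1.15 for the proteasome, -0.95 for interferon, -0.74 for immediate early and -0.79 for transcription factor genes. Median-ratio scaling gave -0.91 for matrix proteases, 1.11 for translation factors, -0.91 for immediate early and -0.96 for transcription factor genes. A pseudocount of 5 CPM gave -0.99 for matrix proteases, 0.93 for histones and -0.97 for immediate early genes. Without the 100 most abundant genes the values were 0.94 for tubulins, -1.09 for the interleukin 6 family and -0.96 for immediate early genes. The causes of these moves were not tested beyond the change in members.

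Depth limits the low end: 1 tag is 0.183 CPM in Untreated and 0.225 in Day 4, and a gene with 1 to 4 Untreated tags has an interval several-fold wide.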

Other observations

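Of 20 measured members of a list of transporters and channels 7 fell (35.0%, against 6.79% of all measured genes) and 0 rose, with a median of -0.11. Of the 20, 4 lay below 10 CPM in Day 4, and Slc7a10 is also on the alveolar fibroblast list. The glutamine transporter Slc38a5 went from 74.4 to 3.15 CPM, 29.3-fold lower (17.3 to 54.1), and the transporter Slc43a3 from 395 to 47. The mitochondrial nucleotide carrier Slc25a5 stood at 638 against 132 CPM, 3.9-fold higher (3.6 to 4.24). Genes of clotting and its control parted in the plasminogen list: the urokinase receptor Plaur rose from 3.47 to 25.4 CPM, while thrombomodulin (Thbd) and the thrombin receptor F2r fell from 88.3 to 10.8 and from 201 to 27.9.

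Among neurite and adhesion genes Ncam1, a neural cell adhesion molecule, rose from 1.83 to 29.9 CPM, and Basp1, a growth cone protein, from 3.29 to 58.5. Cav1, the main caveolin, stood at 251 against 83 CPM, 2.44-fold higher (2.18 to 2.72), whereas Sdpr, a cavin that shapes caveolae, was 3.67-fold lower (2.82 to 4.82). The myelin gene Pmp22, also expressed by fibroblasts, fell from 120.3 to 8.32 CPM. Of the basement membrane list Npnt was the 1 of 5 measured members that fell, and Lamc1 (laminin gamma 1) stood at 24.1 and 27.2 CPM.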
